A study of Drosophila melanogaster with 2 samples.

Results

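The 663 optimal peaks of NC2beta on the X chromosome were described here, out of 3897 optimal peaks in the whole set, and were chosen by their chromosome alone. They were set against the 2496 peaks of the autosome arms 2L (731), 3L (818) and 3R (947). The peaks came from ChIP-seq, in which chromatin bound by a protein is pulled down and sequenced, with an anti-GFP antibody on whole Drosophila melanogaster embryos 0 to 24 h old. The labels name the antibody both as anti-GFP and by the target protein, and anti-GFP was taken here. The embryos were from a transgenic line, NC2beta-GFP, that stably expresses NC2beta with GFP at its C terminus, male and female embryos were pooled, and no other genotype or treatment was part of the design. The 1 group had 2 biological replicates, numbered 1 and 3. The levels were those of a tagged protein in a mixture of all embryonic tissues and stages.

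NC2beta (Dr1) pairs with NC2alpha (DRAP1) to form NC2, a cofactor that binds the TATA-binding protein on DNA and can block or favour the assembly of the transcription machinery, depending on the core promoter. In Drosophila, males carry a single X, whose transcription is raised by the MSL complex with the roX RNAs, while females carry a pair and depend on Sxl to keep that complex off. A pool of both sexes therefore holds fewer copies of the X than of an autosome, so that copy number and binding per copy cannot be told apart in the peak heights below.

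Height is the authors' signal value for a region, whose unit no label or header states, and relative height is the height in a replicate divided by the median over all optimal peaks in that replicate. A promoter peak had its summit within 250 bp of a transcription start site (TSS) of a protein-coding gene, a flank peak between 251 and 1000 bp, and a distal peak farther than 1000 bp. Intervals are 95% intervals that cover counting error only, and peaks of a chromosome are not independent replicates. A difference is called only where its interval leaves out 0.

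A small set of X promoters shows some of the elements that are compared below. Capitals mark the TCT element, the initiator of many ribosomal protein genes, in 60 bases of dm6 from 40 before the TSS, 5′ to 3′ along the gene. They are 5 of the 8 bound X TSSs that hold it, those whose stretch overlaps at most 30 annotated exon bases. The stretches were RpS5a at chrX:17148245-17148304 on the minus strand, RpS14a at chrX:7933702-7933761 on the plus strand, RpS19a at chrX:16637854-16637913 on the plus strand, RpL35 at chrX:5672694-5672753 on the plus strand, Pfrx at chrX:19505873-19505932 on the plus strand.
RpS5a: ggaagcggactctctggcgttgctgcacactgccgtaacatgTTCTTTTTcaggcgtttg
RpS14a: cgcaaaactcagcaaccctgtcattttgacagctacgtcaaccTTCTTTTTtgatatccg
RpS19a: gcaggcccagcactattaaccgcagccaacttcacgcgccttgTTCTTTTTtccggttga
RpL35: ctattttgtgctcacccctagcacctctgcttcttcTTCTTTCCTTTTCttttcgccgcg
Pfrx: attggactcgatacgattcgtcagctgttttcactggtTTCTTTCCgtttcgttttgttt

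The DNA replication-related element (DRE), a promoter element bound by the factor DREF, was the sequence ATCGAT with A or T on each side. It is shown in capitals in the 100 bases before the TSS of the 5 highest X promoter peaks that hold one there without exon sequence of more than 30 bases. The stretches were RpS10b at chrX:19597931-19598030 on the plus strand, RpL37-1 at chrX:15139368-15139467 on the minus strand, RpS28b at chrX:9554523-9554622 on the plus strand, RpS15Aa at chrX:13337706-13337805 on the minus strand, RpS14a at chrX:7933642-7933741 on the plus strand.
RpS10b: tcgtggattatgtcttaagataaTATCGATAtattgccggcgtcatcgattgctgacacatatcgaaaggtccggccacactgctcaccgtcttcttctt
RpL37-1: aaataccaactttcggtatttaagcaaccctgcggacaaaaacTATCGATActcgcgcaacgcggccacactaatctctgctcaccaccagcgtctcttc
RpS28b: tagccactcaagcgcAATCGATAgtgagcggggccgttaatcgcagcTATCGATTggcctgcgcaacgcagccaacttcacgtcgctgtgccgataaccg
RpS15Aa: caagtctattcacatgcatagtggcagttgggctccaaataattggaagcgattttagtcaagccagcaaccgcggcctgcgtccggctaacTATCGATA
RpS14a: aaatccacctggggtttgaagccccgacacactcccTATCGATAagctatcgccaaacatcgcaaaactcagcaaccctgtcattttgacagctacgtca

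A CA repeat was marked the same way before the TSS of Atg8a, which encodes an autophagy protein (chrX:10767307-10767406 on the minus strand), and reads as TG units on this strand.
Atg8a: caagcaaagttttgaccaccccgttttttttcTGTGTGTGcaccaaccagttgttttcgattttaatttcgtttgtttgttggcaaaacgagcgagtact

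The highest intronic peaks outside promoters are shown by 121 bases around the summit, whose base is in capitals, on the plus strand. The stretches were intron of ph-p at chrX:2137290-2137410 on the plus strand, intron of CG32772 at chrX:4910318-4910438 on the plus strand, intron of Tlk at chrX:3742150-3742270 on the plus strand.
intron of ph-p: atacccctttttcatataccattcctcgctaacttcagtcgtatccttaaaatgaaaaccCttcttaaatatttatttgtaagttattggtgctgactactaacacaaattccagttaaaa
intron of CG32772: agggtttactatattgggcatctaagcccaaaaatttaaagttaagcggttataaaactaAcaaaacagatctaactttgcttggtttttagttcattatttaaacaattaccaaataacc
intron of Tlk: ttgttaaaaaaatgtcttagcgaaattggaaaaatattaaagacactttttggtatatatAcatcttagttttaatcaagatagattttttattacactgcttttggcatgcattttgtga

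X carried peaks at nearly the density of the autosomes but fewer of them at promoters. X held 28.2 peaks per Mb (exact Poisson interval 26.1 to 30.4) against 29.8 on 2L, 3L and 3R, a ratio of 0.944 (0.866 to 1.03). Of the 663 X peaks, 273 (41.2%, exact interval 37.4 to 45.0) lay at a TSS, against 1278 of 2496 (51.2%) on the autosomes. The difference was −10.03 percentage points (Newcombe interval −14.2 to −5.76). The autosome arms were at 48.6% on 2L, 49.0% on 3L and 55.1% on 3R. Each set against the other autosomes, 2L differed by −3.73 points and 3L by −3.24, with intervals that include 0, while 3R was 6.32 points higher (2.28 to 10.3). The X was therefore the lowest of the 4 arms, and 3R also differed from its fellows.

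X had 11.6 promoter peaks per Mb against 15.3 on the autosomes, and 16.6 other peaks per Mb against 14.6. Flank peaks numbered 127 on X (19.2%, against 14.1%), a difference of 5.09 points (1.94 to 8.52). Distal peaks numbered 263 (39.7%, against 34.7%), a difference of 4.93 points (0.819 to 9.13). That last difference did not hold against 2L and 3L alone, at 3.13 points (−1.26 to 7.58), nor with distal set at over 2000 bp, at 2.29 points (−1.47 to 6.23). The share of the arm within 250 bp of a TSS was 6.03% on X and 6.17% on the autosomes.

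**Figure D1:**
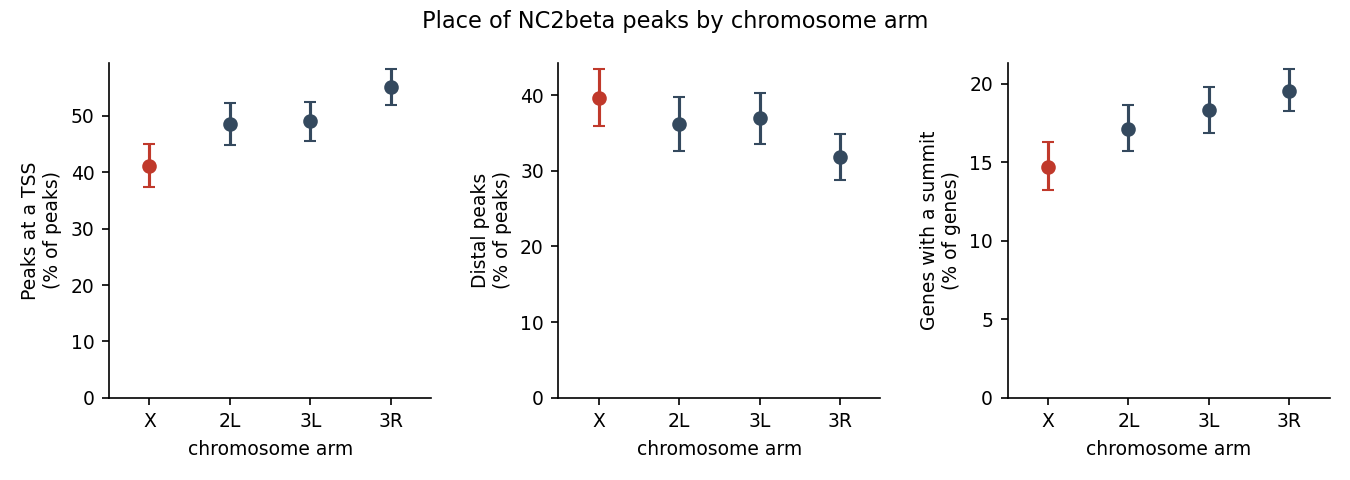
Share of peaks at a protein-coding TSS, share of distal peaks and share of protein-coding genes with a summit within 250 bp of a TSS, in percent, for X and 3 autosome arms. Points are shares and bars are exact 95% intervals; X is lowest for promoter peaks, at 41.2%, and for genes, at 14.7%.

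Fewer X genes had a summit at a TSS. On X, 323 of 2196 protein-coding genes (14.7%, 13.3 to 16.3) had one, against 1625 of 8817 (18.4%) on the autosomes, a difference of −3.72 points (−5.36 to −1.99). Single autosome arms also differed from the other autosomes, 2L by −1.87 points (−3.58 to −0.105) and 3R by 1.84 (0.177 to 3.53). The arm 3L, at −0.202 points (−1.92 to 1.57), did not. Among genes with 1 unique TSS the shares were 9.72% on X and 14.6% on the autosomes. Genes with 2 TSSs had 23.0% and 27.5%, and genes with 3 or more had 30.7% and 36.5%. For genes with 1 TSS the difference was −4.85 points, with an interval that leaves out 0, and for the other classes it was not tested. X genes had 1.49 annotated TSSs each and autosomal genes 1.35. Leaving out the ribosomal protein genes moved neither share across its threshold.

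No difference in height between the optimal peaks of X and of the autosomes was found. X peaks ran from 74.2 to 1201 with a median of 114 (108 to 119), against 113 on the autosomes. The Hodges-Lehmann shift was 0.00 on the log2 scale (−0.04 to 0.04). The arm 2L was shifted by 0.07 (0.02 to 0.11) and 3L by −0.05 (−0.10 to −0.01) against the other autosomes, so the spread between autosome arms was larger than the X shift. The promoter peaks of X were at a shift of −0.05 (−0.11 to 0.01). Since the optimal set keeps only the highest regions, the heights of its members say little of the regions below.

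The replicates gave like values. In replicate 1 the median relative height was 1.02 on X and 1.01 on the autosomes, a ratio of 1.01, and in replicate 3 it was 0.991 and 1.00, a ratio of 0.986. The mean ratio was 0.998 ± 0.0164 (SD, n = 2), which was not tested. For promoter peaks the ratio was 0.957 in replicate 1 and 0.945 in replicate 3. For distal peaks it was 1.03 and 0.984. A region of both replicates was matched to 662 of the 663 X peaks, and 95.3% of these pairs lay within 1 log2 unit of each other. Across these peaks, which share the libraries, Spearman's rho was 0.70. The optimal set was chosen for agreement between these same replicates, so the matching and part of this likeness follow from that choice.

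The gap in promoter share was seen within the optimal set and not in the ranks just below it. Among the 1000 highest regions it was 38.9% on X and 50.5% on the autosomes. Among ranks 1001 to 2000 it was 32.2% and 47.9%, a gap of −15.7 points (−23.2 to −7.49). Ranks 2001 to 3897 gave −6.00 points (−12.1 to 0.155). Below the optimal set, ranks 3898 to 10000 gave −0.681 points (−3.90 to 2.60), and ranks 10001 to 20000 gave 4.44 points (2.32 to 6.65) in the other direction. The X held 21.0% of the X and autosome peaks in the optimal set and 22.9% of the regions below it.

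**Figure D2:**
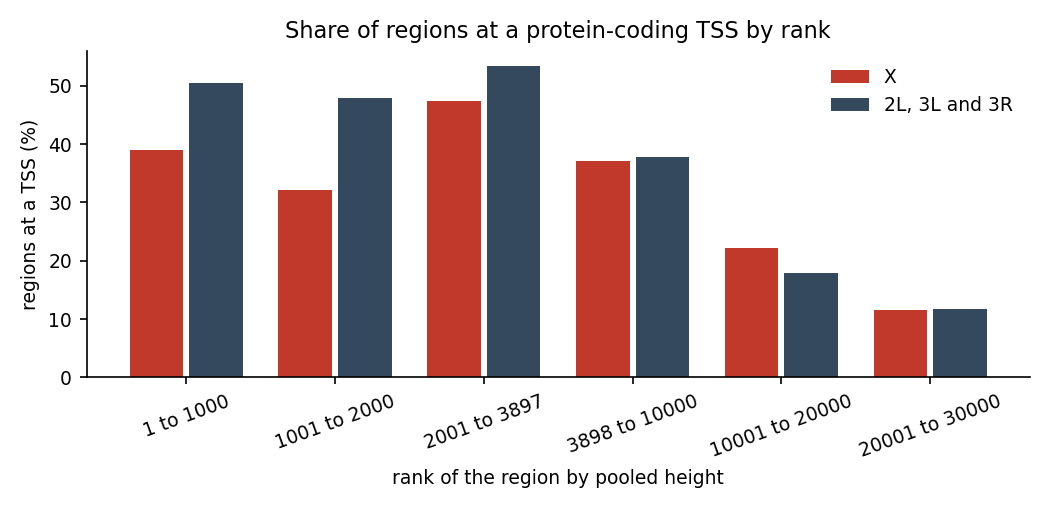
Share of regions at a protein-coding TSS, in percent of the regions in each rank class of the pooled list, for X and for 2L, 3L and 3R. The X bars are lower in the classes from rank 1 to 3897, and at 37.1% against 37.8% in ranks 3898 to 10000.

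Regions of any height at X promoters were lower than at autosomal ones. A pooled region lay at a TSS of 52.3% of X genes and 47.1% of autosomal genes, a difference of 5.22 points (2.88 to 7.55). Among genes with 1 unique TSS it was 2.51 points (−0.228 to 5.28), and in the replicates 0.573 and −0.157 points, all with intervals that include 0. Of the genes with such a region, 28.1% on X and 39.2% on the autosomes had an optimal peak, a difference of −11.03 points (−14.0 to −7.98). The highest region per gene had a median height of 48.9 on X and 59.3 on the autosomes, a shift of −0.25 on the log2 scale (−0.31 to −0.18). In replicate 1 the shift was −0.21 (−0.28 to −0.15), and in replicate 3 −0.15 (−0.22 to −0.09). A region shared by several genes counts for each of them here. With each promoter region counted once, the X shift was smaller, at −0.16 (−0.21 to −0.10) in the pooled list. It was −0.14 in replicate 1 (−0.20 to −0.08) and −0.10 in replicate 3 (−0.16 to −0.05). For 2L, 3L and 3R against the other autosomes, every shift of the highest region per gene in the 3 lists lay between −0.06 and 0.05, with intervals that include 0. These comparisons were chosen after seeing the data.

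Distal regions of X were shifted by −0.03 (−0.04 to −0.01) in the pooled list, by −0.001 in replicate 1 (−0.02 to 0.02) and by −0.02 in replicate 3 (−0.04 to −0.01). The lists stop at a lowest height of 18.0 (pooled), 11.3 (replicate 1) and 10.04 (replicate 3), and the X distal medians of 25.5, 16.6 and 13.6 lie near these, which may narrow a shift. For the highest region per gene, the pooled difference in log2 height was −0.06 at the 10th percentile and −0.47 at the 95th. In replicate 3 the same percentiles differed by −0.06 and −0.45. Genes with a TSS of the other strand within 500 bp had a shift of −0.39 (−0.50 to −0.28), and genes without one −0.12 (−0.21 to −0.04). Without one, replicate 1 gave −0.08 (−0.16 to −0.001) and replicate 3 −0.06 (−0.13 to 0.01), where the interval includes 0. Genes with and without DRE gave −0.22 and −0.27, and genes with and without GAGA −0.14 and −0.30. The differences between these shifts were not tested.

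**Figure D3:**
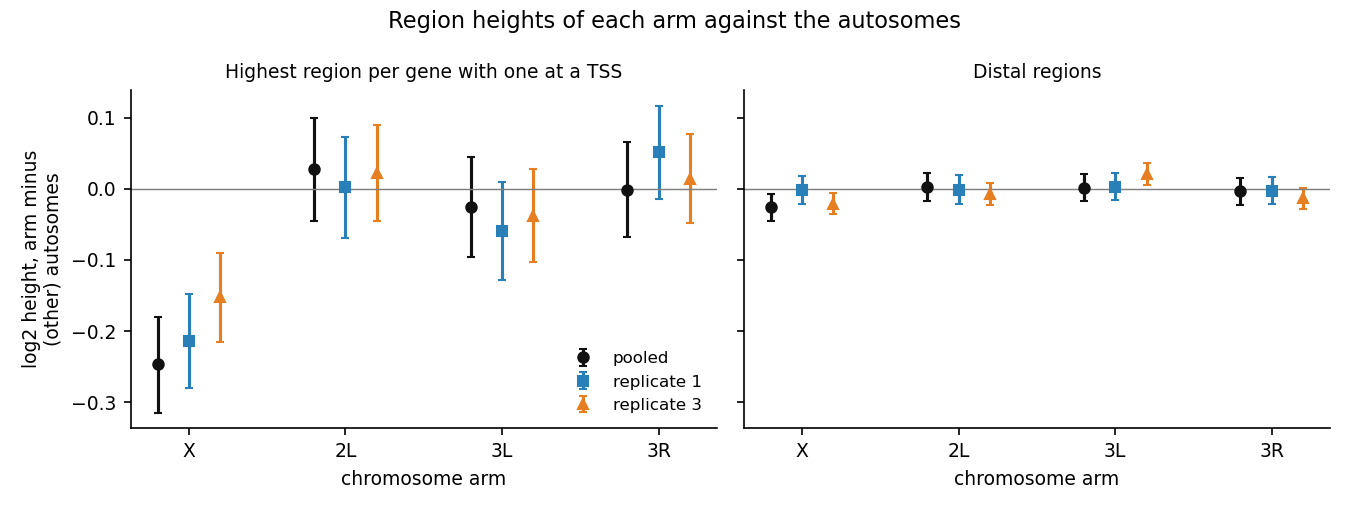
Hodges-Lehmann shift of log2 height of each arm against the autosomes (for 2L, 3L and 3R, against the other autosomes), for the highest region per gene with one at a TSS (left) and for distal regions (right), with 95% intervals. The 3 X points at promoters lie at −0.25, −0.21 and −0.15, below all others. The left panel counts genes and the right panel counts regions.

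Summits at X promoters lay a little farther from the TSS. The median was −62 bp on X and −51.5 bp on the autosomes, and 33.3% of X summits were within 50 bp of a TSS against 40.7%, a difference of −7.36 points (−13.3 to −0.984). TSSs of both strands stood near 22.3% of X promoter summits and 29.7% of autosomal ones, a difference of −7.31 points (−12.5 to −1.47). Summits serving 2 or more genes made up 23.4% and 31.1%. The share upstream of the TSS, 79.1% against 73.7%, did not differ beyond its interval (−0.298 to 10.5). Median GC content in the window of 100 bp on each side of the promoter summits was 41.3% on X and 38.8% on the autosomes, and its part in the result was not tested.

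The highest X peaks were strong in both replicates. Ugalt, a UDP-galactose transporter gene, had a height of 1201 (dm6, chrX:2703700-2704080, summit 30 bp upstream of the TSS), with relative heights of 10.1 in replicate 1 and 11.1 in replicate 3. The next promoter peaks were at RpL22, at 562 (4.98 and 4.77), and bves, a popeye-domain gene, at 561 (4.81 and 4.96). MFS10, a transporter gene, stood at 487, RpL17 at 449 and Atf3, a bZIP transcription factor gene, at 427. Among the 20 highest promoter peaks, 6 were at ribosomal protein genes, RpL22, RpL17, RpS10b, RpL37-1, RpL36 and RpS28b. Ptpmeg2, a tyrosine phosphatase gene, had 2, at 403 and 399, and sgg, the GSK3 kinase gene of Wnt signalling, 1 at 356. Lower in the list were TRAM at 334, moody, a receptor of the glial barrier, at 328, the glycolytic gene Gapdh2 at 315, Hexo2 at 299, the cell adhesion gene sdk at 296 and bbx at 291.

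The pair of highest X peaks, Ugalt and a flank peak in an intron of ph-p, a Polycomb gene, stood at 1201 and 1183 and at ranks 6 and 7 of all optimal peaks. The ph-p summit lay 495 bp from the TSS, and its relative heights were 9.95 and 11.004. Of the 5 highest distal peaks, those in introns of CG32772 (727) and Tlk (706), a kinase gene, and the one in NFAT (522), a transcription factor gene, lay 1276, 2313 and 1681 bp from a TSS. The other two, at 713 and 642, fell in lncRNA:CR44619 and lncRNA:Vinr, which are not protein-coding. All 5 had higher relative heights in replicate 3 than in replicate 1.

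**Figure D4:**
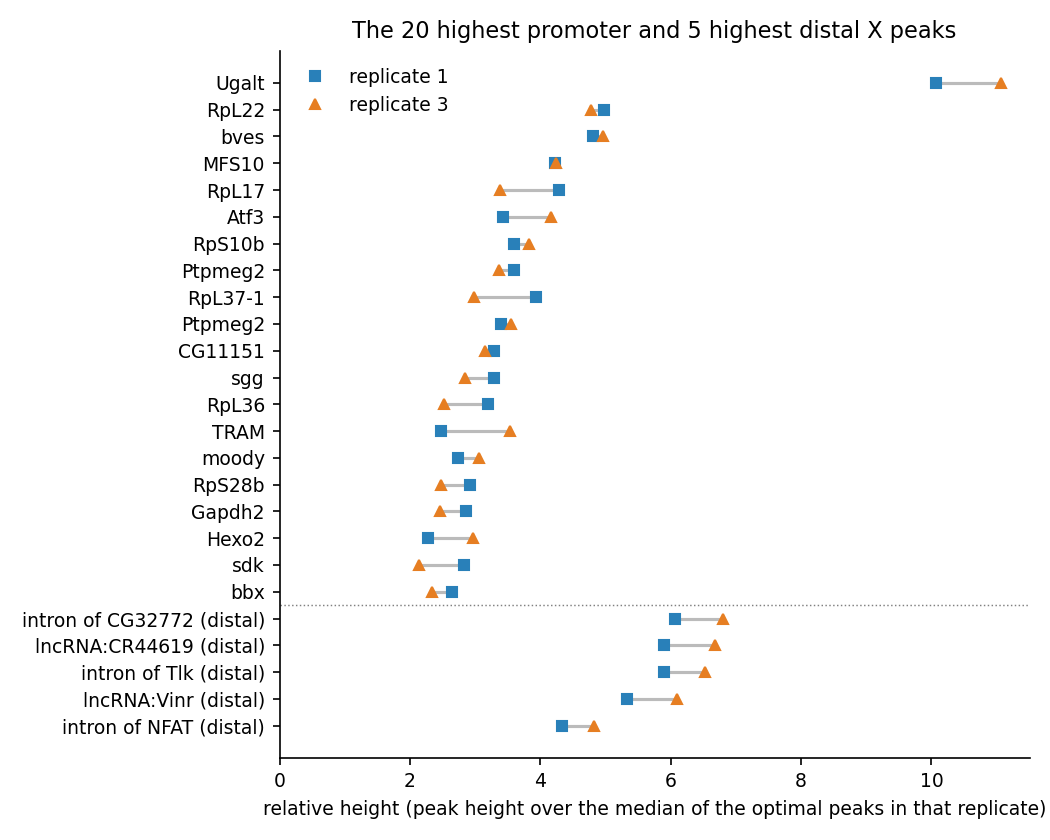
Relative height (peak height over the median of the optimal peaks in that replicate) of the 20 highest promoter peaks and the 5 highest distal peaks of X, with a square for replicate 1 and a triangle for replicate 3. Ugalt lies at 10.1 and 11.1, and RpL22 at 4.98 and 4.77.

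Some promoter peaks differed between the replicates. Most tilted to replicate 1 were unc-119 (0.763 in replicate 1 and 0.224 in replicate 3), the peak shared by CG45089, ND-MNLL and p115 (0.984 and 0.329) and CG3626 (0.921 and 0.312). Most tilted to replicate 3 were the peaks of peng and sol (0.530 and 1.57), of CG32590 and Flo2 (0.541 and 1.17) and of PIG-Q and U2af50 (0.608 and 1.25). The nearest region in each replicate was taken, so a higher neighbour may have been missed.

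Among the gene lists, all 15 cytoplasmic ribosomal protein genes of X had a summit, beside 14.7% of all X genes (autosomes 46 of 56, beside 18.4%), at heights of 123 to 562, with 265 the median. The autosomal median was 347, and the shift of the X genes, −0.36 on the log2 scale, had an interval that includes 0 (−0.86 to 0.12). The smallest X value was RpS6 at 123, then RpL35 at 147 and RpS14b at 149; RpS14a and RpS14b are near-identical neighbours, so their heights may share reads. Of oxidative phosphorylation genes 6 of 12 had a summit (autosomes 14 of 55), highest at ND-ASHI (233), COX6B (218) and ND-24 (165). Of 12 cell cycle and replication genes 5 had one (autosomes 11 of 31). These were the topoisomerase genes Top1 (175) and Top3beta (150), the cohesin release factor gene wapl (95.2), and Grip91 (89.1) and Cdk7 (88.6). Splicing genes had 2 of 4 (autosomes 8 of 26), U2af50 and snf, and translation factors 1 of 7 (autosomes 14 of 33), eIF4H1 (85.7). Genes of RNA polymerase II and the general factors had 1 of 5 (autosomes 14 of 33), Trf2, the TBP-related factor gene, at 96.8. Cdk7 and snf share the same peak, so it is counted in both lists and again for snf below.

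Several lists had no summit, beside 14.7% of all X genes, so that a count of 0 in a short list lies near that share. None of the 11 mitochondrial ribosomal protein genes of X had one (upper limit 28.5%), against 18 of 50 on the autosomes. None of 6 proteasome genes had one (autosomes 7 of 29), nor did 4 chaperone (8 of 26), 2 Mediator (6 of 22) or 2 vacuolar ATPase genes (4 of 23). Absence from the optimal set is not absence of signal, since Rpt6 (58.7) and Hsp60A (65.6) had lower pooled regions at a TSS. None of 31 chemoreceptor and odorant binding genes (autosomes 1 of 124), 13 Stellate genes, 10 pigment and metabolic marker genes (0 of 1) or 8 cuticle genes (0 of 82) had a summit. Whether reads could be placed uniquely at the Stellate genes was not tested. Patterning and signalling genes had 6 of 33, highest at sgg, mys and csw. Chromatin regulators had 1 of 7 (autosomes 2 of 3), fs(1)h, which shares its peak with mys, at 165. Neuronal genes had 1 of 16 (autosomes 2 of 3), Nrg, at 81.4, and ovary and eggshell genes 1 of 12, fs(1)N, at 114.5.

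Of 7 protein-coding genes of sex determination and dosage compensation on X, 2 had a summit (exact interval 3.67% to 71.0%), beside 14.7% of all X genes. On the autosomes 3 of 7 had one, beside 18.4%. Sxl, the switch gene of sex determination, had a height of 117 (relative heights 0.938 and 1.16) and snf 88.6, at the peak shared with Cdk7. No optimal summit lay at mof, a histone acetyltransferase gene of the MSL complex (highest pooled region 25.2), or at run (57.2), sc (46.6), upd1 (21.9) or sisA. No pooled region lay at a TSS of sisA. The RNA gene roX1 had no optimal summit, the nearest being 5963 bp from a TSS, and a pooled region of 38.9 at a TSS, and roX2 had one of 49.6 with the nearest optimal summit 1399 bp away.

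Distal peaks on X lay in introns more often. Of the 263, 194 (73.8%, 68.0 to 79.0) were in introns, against 57.6% on the autosomes, a difference of 16.2 points (9.71 to 22.2). The autosome arms differed among themselves, with 53.8% on 2L, 51.3% on 3L and 67.1% on 3R, where the difference from the other autosomes was 14.6 points (7.79 to 21.2). Introns made up 44.1% of distal sequence on X, 39.4% on 2L, 38.7% on 3L and 47.2% on 3R. The genes with most distal peaks were kirre (9), a cell fusion gene, Raf (8), a kinase gene, and Hr4 (7), a nuclear receptor gene. These counts are not scaled by gene length, which was 394149 bp for kirre, 48405 bp for Raf and 66017 bp for Hr4. Peaks per Mb along X ran from 12 to 49 up to 22 Mb, and none lay beyond.

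Promoter elements were compared between the 401 bound X TSSs and the 1902 bound autosomal TSSs. Neighbouring TSSs can share a peak and sequence, since X had 273 promoter peaks, so the same match may count several times. The intervals take TSSs as independent and may therefore be too narrow. The search covered 13 elements: TATA (TATA, then A or T, AA, then A or G), the initiator (TCA, G or T, T, then C or T), DPE (A or G, G, A or T, C or T, then any base but T), TCT (2 pyrimidines, CTTT, 2 pyrimidines), DRE, Motif 1, Motif 6, Motif 7, GAGA (GAGAG), E-box (CANNTG), Zelda (CAGGTAG), and GA and CA repeats of 4 units. TATA and the initiator allowed 1 mismatch, as did Motif 1 and Motif 6, and the first 4 were sought on the strand of the gene at their known places, the others on both strands within 100 bp. GAGA matches include GA repeats. Over all 19253 TSSs, DRE was found at 11.4%, GAGA at 24.99%, E-box at 64.0%, TATA at 13.1%, the initiator at 50.8%, DPE at 7.75%, TCT at 0.675%, Motif 1 at 8.92%, Motif 6 at 8.69%, Motif 7 at 6.80%, Zelda at 1.08%, GA repeats at 2.18% and CA repeats at 3.999%. A match is a description of letters, not of a factor.

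DRE was found at 99 of the 401 bound X TSSs (24.7%) against 18.8% of autosomal ones, a difference of 5.87 points (1.502 to 10.6). CA repeats were at 5.74% and 3.00%, a difference of 2.74 points (0.666 to 5.55). Both were also commoner at unbound X TSSs, by 5.43 points (4.07 to 6.87) for DRE and 2.08 points (1.21 to 3.05) for CA repeats. With the confidence level shared over the 13 elements none was called, and at 95% these 2 were. The 95% call was lost for DRE in 2 alternatives, among them without 3L (3.79 points, −0.790 to 8.71). For CA repeats it was lost in the highest peaks (1.94 points) and with TSSs within 100 bp (1.82 points). GAGA was at 25.9% and 21.9% (−0.466 to 8.86), the initiator at 39.7% and 44.6% (−10.2 to 0.361), and TATA at 6.23% and 7.15%. TCT was at 8 of 401 X TSSs, of which 6 belonged to ribosomal protein genes. Around the promoter summits, where each peak counts once, DRE differed by 3.14 points (−1.62 to 8.59) within 100 bp. CA repeats differed there by 2.36 points (−0.04 to 5.84). None of 9 motifs was called in promoter or distal peaks within 100 bp of the summit, at that level or at 95%. Within 50 bp, E-box (6.504 points, 0.123 to 13.0) and Zelda (0.654 points, 0.0104 to 2.55, from 2 X summits) were called in promoter peaks at 95% alone. In windows 500 bp to the side, GAGA (5.90 points, 0.452 to 11.9) and CA repeats (3.24, 0.0966 to 7.35) were called at 95% beside promoter summits. Beside distal summits GA repeats (4.12, 1.54 to 7.77) and CA repeats (3.94, 0.567 to 8.23) were called. At 1000 bp only GA and CA repeats beside promoter summits were called.

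**Figure D5:**
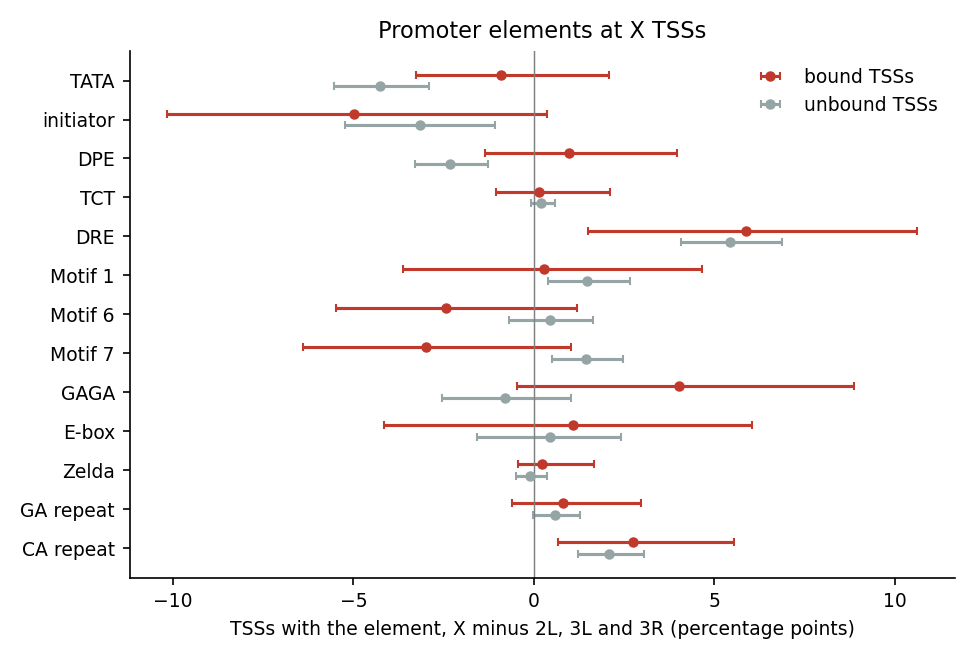
Share of TSSs with an element on X minus that on 2L, 3L and 3R, in percentage points with 95% intervals, at bound and unbound TSSs. DRE lies at 5.87 for bound and 5.43 for unbound TSSs.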

How the data were processed

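Per the labels, the 2 samples were biological replicates of 1 group, and each replicate and their pool gave a list of 30000 regions including background, from which the authors chose the optimal set for irreproducible discovery rate. The height is a score in the deposited lists. Its unit is not given in the sources used here, nor is an aligner or a peak caller named. The −log10 q value in the deposited lists was 4.08 at every optimal peak, so it ranked nothing. Read totals are unknown, and the control alignment was not analysed here.

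Peaks of build dm6 were set against the Release 6 genome (RefSeq) and Ensembl release 115, with 19253 unique TSSs of 13945 protein-coding genes. Shares were compared by Newcombe intervals and log2 heights by Hodges-Lehmann shifts with rank-sum intervals, which describe these lists and give no p. Each replicate's height came from the nearest region within 250 bp. Element intervals were also taken at a 99.6% level over 13 elements. The code was tested on simulated data. Python 3.11.15, numpy 2.4.6, pandas 2.3.3, scipy 1.17.1, statsmodels 0.14.6 and matplotlib 3.10.9 were used. The members and lists were chosen with earlier results of these data known. Genes were named by rule: the 20 highest promoter peaks, the 5 highest distal peaks, up to 3 members of each list (all, where at most 8 are on X), the 3 most different between replicates in each direction, and Sxl, Trf2, roX1 and roX2. In the short lists, members without a summit were named only in part. The genes with most distal peaks, the ph-p peak, Grip91, Cdk7, the lowest ribosomal protein genes and the lower pooled regions named were chosen after their values were seen.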

Additional observations from a re-analysis of the deposited data

How the results depend on the processing

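The promoter share of X peaks stayed lower than on the autosomes under all 10 alternatives, from −13.6 to −7.40 points, and the share of genes under all 11, from −4.85 to −2.52. These alternatives were each replicate's highest regions, the highest peaks alone, other arms, other TSS distances, genes with 1 TSS and no ribosomal protein genes. For the height of X peaks, the interval included 0 under all 9. The distal share, 4.93 points, was no longer called without 3R (3.13) or beyond 2000 bp (2.29), and kept its direction under all 10; leaving out replicates gave 4.68 and 5.82. The count of called elements was 0 and became 1 without 3R, with TSSs within 100 bp or 500 bp and with the window moved 200 bp downstream, and leaving out replicates gave 0 and 1. The element called was DRE without replicate 3, without 3R and at 100 bp, and CA repeats at 500 bp and in the moved window. In the moved window all elements were sought 200 bp from their places, so that call describes sequence beside the TSS. At 95% alone, the initiator also left out 0 on the lower side in 5 alternatives and GAGA on the higher side in 2. DPE and Motif 6 did so on the higher side in 1 alternative each. The highest region per gene had shifts from −0.39 to −0.12 under 12 alternatives. The share of distal peaks in introns was 12.9 to 21.3 points higher without an arm and 5.29 below the optimal set. No paired analysis was possible because the design has 1 group. No test over the 2 replicates was run, and depth limits could not be given.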

Other observations

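A summit lay within 250 bp of the TSS of 1 of 24 tRNA genes on X (4.17%), tRNA:Gln-TTG-2-1, against 2.98% on the autosomes, and of 1 of 31 snoRNA genes (3.23%), snoRNA:Or-aca2, against 3.55%. Of 483 genes annotated as ncRNA, 17 (3.52%, exact interval 2.06 to 5.58) had one, against 2.74% on the autosomes. Among them was lncRNA:flam, the flamenco locus known as a source of piRNAs in ovarian somatic cells; it was chosen after its value was seen. Neighbouring X peaks lay a median of 12513 bp apart, against 11791 bp on the autosomes, and 43 of 662 gaps were within 1000 bp.

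Of the 100 highest optimal peaks, 73 were on X, 2L, 3L or 3R and 13 of these on X (17.8%, exact interval 9.84 to 28.5), and 4 of the X peaks and 37 of the autosomal peaks lay at a TSS. Of the 500 highest, 84 were on X, of which 34 lay at a TSS, against 178 on the autosomes. Over all optimal peaks these counts were 273 and 1278. No test was made of these shares.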
